A study of Mus musculus with 8 samples.

Results

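The guanylate binding proteins (GBPs) are large GTPases that cells make in response to interferon. They gather on the membranes of intracellular bacteria and parasites, help to open the compartments that hold them, and act with the caspases and receptors of the inflammasome. Interferon gamma induces their genes through the kinases JAK1 and JAK2 and, in part, the factor IRF1, which binds the interferon-stimulated response element (ISRE). A further element of interferon gamma targets is the gamma-activated site (GAS). IRF4, the factor deleted in the study, belongs to the same family as IRF1 and is known best from lymphoid and myeloid cells, where it can bind ISREs and, with an ETS partner, composite ETS-IRF elements.

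The 9 genes described here were selected by name, as the rows Gbp2, Gbp3, Gbp4, Gbp6, Gbp7, Gbp8, Gbp9, Gbp10 and Gbp11 among 24054 genes measured by RNA-seq. They were chosen with their MI4KO and flox values already known, so their differences between the groups, and any count of members against a threshold, are given as a description and not as a test. SOL (soleus) muscle, a mainly slow and oxidative muscle, was taken from 4 MI4KO mice and 4 flox mice. All 8 mice were male C57BL/6 mice, recorded in the labels as fed a high-fat diet, and their age is not given in the sources used here. MI4KO mice carry 2 floxed Irf4 alleles and Myl1-Cre, a knock-in that drives Cre recombinase from the gene of a myosin light chain of skeletal muscle fibres, and flox mice have the floxed alleles without Cre. The libraries were made from whole muscle, whose endothelial, immune and connective tissue cells are not targeted by this Cre. Mice are numbered from 1 to 4 within each group by ascending number in the labels.

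Values are the deposited counts per gene, scaled by TMM (a method that keeps most genes level between libraries) to a common library size, and between 13417512 and 16384565 reads per mouse stand behind them. Irf4 itself was at 0.69, 1.46, 1.58 and 1.68 in flox mice 1 to 4 and at 0.73, 0.84, 0.27 and 1.03 in MI4KO mice 1 to 4, from 4 to 23 reads per mouse. Flox mouse 1 lay below the highest 3 MI4KO mice, so the groups overlapped (log2 difference -0.45, standard error 0.20, adjusted p = 1.0 by limma). The ratio of MI4KO to flox means was 0.53. As a planned check of the labels on this gene alone, the unadjusted p was 0.040 by limma. On the recovered reads the log2 difference of Irf4 was -0.87 with DESeq2 (unadjusted p = 0.058) and -0.855 with edgeR (unadjusted p = 0.056). With 1 mouse left out, the unadjusted p by limma ranged from 0.0081 (without flox mouse 1) to 0.12 (without MI4KO mouse 3). The p-value of this check thus varied with the method and with the mouse left out. The slow and oxidative fibre markers, led by Acta1, the muscle actin, summed to between 98530 and 117500 in every mouse. Libraries that stood apart were MI4KO mouse 3, which held the highest value of all 8 mice for 30.9% of the 11865 genes tested, and flox mouse 1, whose 10 liver markers summed to 133 against 1.2 to 3.19 in the other mice.

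The family lies in 2 clusters, whose sequences decide which reads can be told apart. In GENCODE M21 on GRCm38, Gbp7 (chr3:142530342-142550149), Gbp3 (chr3:142560026-142573209) and Gbp2 (chr3:142620602-142638008) lie on the plus strand of chromosome 3, with the related genes Gbp5 and Gbp2b beside them. The other 6 members lie on the minus strand of chromosome 5, in the order Gbp8 (chr5:105014150-105139540), Gbp9 (chr5:105077630-105139539), Gbp4 (chr5:105115767-105139586), Gbp10 (chr5:105215699-105239533), Gbp6 (chr5:105270702-105293698) and Gbp11 (chr5:105323042-105346472). The annotated spans of Gbp8, Gbp9 and Gbp4 overlap, so reads from their common stretch cannot be told apart by position. Gbp11 is annotated as a polymorphic pseudogene, a gene that is intact in some strains only, and the other 8 members as protein-coding.

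Gbp6 and Gbp10 are near-copies. Their coding sequences of 1833 bases aligned without gaps, were identical at 1803 bases (98.4%) and shared an identical run of 421 bases. A read of 50 bases from the first stretch shown here, within exon 7 of both transcripts, fits Gbp6 and Gbp10 equally, whereas the second, within exon 10 of both, is the coding stretch of that length in which they differ most, at 8 bases. Capitals mark the differing bases, and both genes are read from the minus strand (GRCm38).
Gbp6, identical stretch, chr5:105276828-105276877: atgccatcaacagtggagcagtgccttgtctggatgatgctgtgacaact
Gbp10, identical stretch, chr5:105221027-105221076: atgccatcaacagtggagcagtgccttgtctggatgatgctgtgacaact
Gbp6, most different stretch, chr5:105274211-105274260: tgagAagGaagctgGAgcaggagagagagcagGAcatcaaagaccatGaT
Gbp10, most different stretch, chr5:105218411-105218460: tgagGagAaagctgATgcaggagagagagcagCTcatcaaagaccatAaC

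To see how far reads of 50 bases could be shared, the main transcript of each gene was cut into every window of that length, and each window was searched in all GENCODE transcripts of the family. Of the Gbp10 windows, 73.9% were found in another family gene, and of the Gbp6 windows 70.3%, most of them in each other. The share was 21.2% for Gbp8, 19.2% for Gbp11, 12.8% for Gbp4 and 9.6% for Gbp9. On chromosome 3 it was 4.8% for Gbp3, 2.3% for Gbp7 and 2.1% for Gbp2. Levels of the chromosome 3 members therefore rested almost wholly on reads of their own, while the split between Gbp6 and Gbp10 rested on 760 windows of Gbp6 and 909 of Gbp10 that no other family gene held. GENCODE also annotates a readthrough gene, Gm43302 (chr5:105214907-105293695), which spans Gbp10 and Gbp6 and has no row in the table. The authors mapped to UCSC transcripts, whose models may differ from these.

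**Figure D1:**
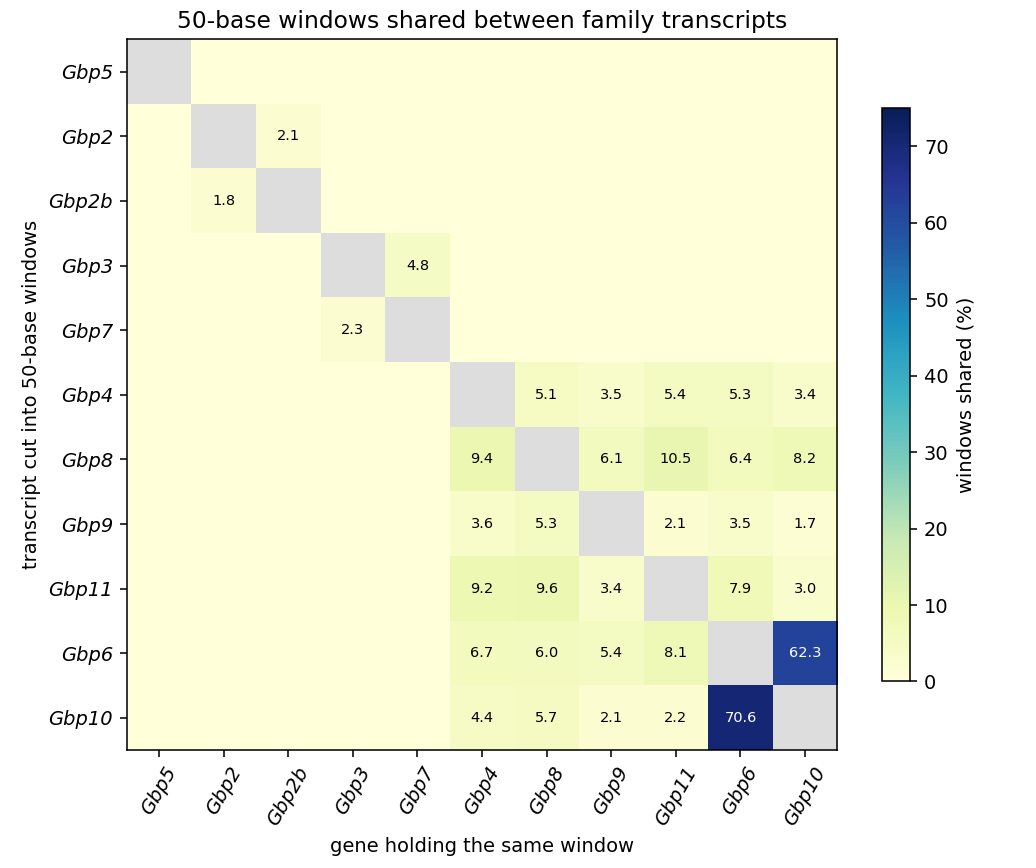
Share of the 50-base windows of each family gene's main transcript (rows) that also occur in a transcript of another family gene (columns), in percent, with empty cells for shares that round to 0. Gbp6 and Gbp10 share 62.3% and 70.6% of their windows with each other, and no other pair shares more than 10.5%.

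Promoter sequences of the chromosome 3 members were searched for the elements that interferon factors bind. The RefSeq promoter table (GRCm38.p6, from 250 bases before to 50 bases after each start site) matched 3 of the 9 members, Gbp2, Gbp3 and Gbp7, and the relatives Gbp5 and Gbp2b. The ISRE core was searched as GAAANNGAAA on either strand, the ETS-IRF composite as GGAANNGAAA on either strand and the GAS as TTCNNNGAA, which reads the same on both strands. The ISRE and composite patterns differ at their second base, so a stretch read on the same strand cannot match both, although neighbouring matches may overlap. These 5 genes had 6 promoters in the table. An ISRE core lay in a promoter of each of the 5 genes but not in all 6 promoters, against 3.44% of all 32851 promoters in the table. The stretches that hold it are shown here on the plus strand, with the match in capitals, because they are the interferon element that all 5 genes have in common.
Gbp2, chr3:142620594-142620623: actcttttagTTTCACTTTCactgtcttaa
Gbp3, chr3:142559992-142560021: gacacagTTTCAGTTTCTATTTCccagatc
Gbp7, chr3:142530273-142530302: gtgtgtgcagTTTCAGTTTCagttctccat
Gbp5, chr3:142496759-142496788: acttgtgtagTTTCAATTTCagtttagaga
Gbp2b, chr3:142594700-142594729: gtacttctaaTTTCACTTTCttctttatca

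Upstream of Gbp3, 2 matches overlapped in a triple repeat. The matches began 59 bases before the RefSeq start site of Gbp2, 45 before that of Gbp3 and 53 before that of Gbp7. GENCODE starts Gbp2 further upstream, at base 142620602, so in that annotation the Gbp2 match falls at the very beginning of the first exon. A GAS lay in a promoter of Gbp5 and in a promoter of Gbp7, against 8.3% of all promoters, and an ETS-IRF composite in a promoter of Gbp5 only, against 2.72%. These matches are descriptions of the sequence, and binding was not measured here.

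Levels of the members differed over a wide range. To compare genes, each value was divided by the length of the gene's main transcript in kilobases. On this scale the mean in flox mice was 33.1 ± 8.96 per kb for Gbp6 and 10.1 ± 3.47 for Gbp10 (SD, n = 4). Gbp2 followed at 3.0 ± 0.76 per kb, Gbp3 at 1.90 ± 0.62, Gbp9 at 1.24 ± 0.26, Gbp7 at 1.0 ± 0.18 and Gbp4 at 0.93 ± 0.38. The lowest flox value per kb of Gbp6 (23.5) was above the highest of Gbp10 (14.1), and the lowest of Gbp10 (7.02) was above the highest of Gbp2 (4.14). The order of Gbp6 and Gbp10 depends on how their common reads were divided, which is not known. It also depends on the GENCODE lengths used here, while the authors mapped to UCSC transcripts. The flox ranges of Gbp2 and Gbp3 overlapped, as did those of Gbp9 and Gbp7 and of Gbp7 and Gbp4, whereas the lowest flox value of Gbp3 (1.467) was just above the highest of Gbp9 (1.425). In MI4KO mice Gbp6 was at 45.6 ± 16.3 per kb and Gbp10 at 20.5 ± 25.9, and their ranges overlapped, since Gbp10 reached 59.3 in MI4KO mouse 3.

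Gbp8 and Gbp11 were at or near 0. Gbp8 had 5 reads in the 8 mice together and at most 2 in any mouse, fewer than the 3 reads set as the limit of detection. Gbp11 had 16 reads in all, with at least 3 in 4 mice, and its highest value was 0.38, in flox mouse 3. Since 3 reads correspond to values between 0.181 and 0.225, and the group means of both genes lay below that range, no ratio is given for them. Gbp2b, the relative named Gbp1 in older annotations, had no read in any mouse, which allows a value of up to 0.225 in the library with the highest limit. Whether these genes are off in SOL or below detection at this depth cannot be told apart.

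**Figure D2:**
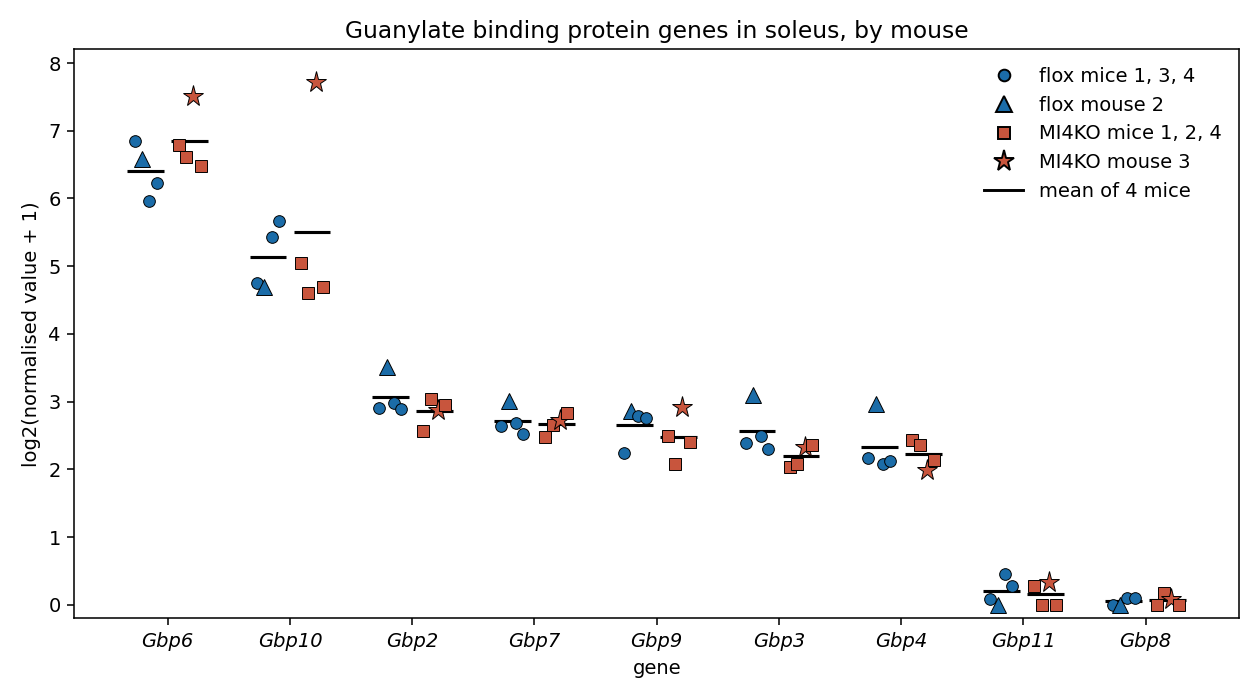
Level of each of the 9 members in each mouse, as log2(normalised value + 1), with flox mice in blue, MI4KO mice in red and a bar for the mean of the 4 mice of a group. MI4KO mouse 3 (star) stands above the other mice for Gbp6 and Gbp10, and flox mouse 2 (triangle) is highest for Gbp2, Gbp7, Gbp3 and Gbp4.

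Gbp10, whose product belongs to the chromosome 5 subfamily, had the widest spread between mice. Its value was 26.0, 24.8, 42.2 and 49.6 in flox mice 1 to 4, and 32.0, 23.2, 209.2 and 24.8 in MI4KO mice 1 to 4. MI4KO mouse 3 was 4.22 times the highest other mouse, and the other 3 MI4KO mice lay within or just below the flox range. Between 357 and 3147 reads stood behind these values, so counting error was small beside the spread. Over all mice the MI4KO mean was 72.3 ± 91.3 and the flox mean 35.7 ± 12.3 (SD, n = 4), a ratio of 2.03. Without MI4KO mouse 3 the ratio was 0.75, with a MI4KO mean of 26.7 ± 4.67 (SD, n = 3). On the log2(value + 1) scale of the fit across all genes, the difference was 0.38 with a standard error of 0.55, and it turned to -0.36 with a standard error of 0.20 without that mouse.

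Gbp6 had the highest mean level of the members in both groups, although Gbp10 exceeded it in MI4KO mouse 3, and how reads common to both were divided is not known. It stood at 114.3, 94.7, 61.2 and 74.2 in flox mice 1 to 4 and at 109.2, 96.6, 181.0 and 87.9 in MI4KO mice 1 to 4. MI4KO mouse 3 was again the highest, at 1.58 times the highest other mouse, and the groups overlapped, since flox mouse 1 lay above the other MI4KO mice and flox mouse 2 among them. The ratio of MI4KO to flox means was 1.38 over all mice and 1.14 without MI4KO mouse 3. The log2 difference was 0.44 (standard error 0.22) and, without that mouse, 0.22 (standard error 0.16). Gbp6 had at least 816 reads in each mouse.

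Gbp6 and Gbp10 did not vary together in the flox mice. Gbp10 made up 18.5% and 20.7% of the summed value of the pair in flox mice 1 and 2, and 40.8% and 40.1% in flox mice 3 and 4. In MI4KO mice 1, 2 and 4 it made up 22.7%, 19.4% and 22.0%, and in MI4KO mouse 3 it made up 53.6%. The sum of the pair was steadier than either gene. In the 7 mice other than MI4KO mouse 3 it lay between 103.5 and 141.2, with a coefficient of variation of 11.2%, against 20.5% for Gbp6 and 32.3% for Gbp10. In MI4KO mouse 3 the sum reached 390.2, or 2.76 times the highest other mouse. The sum does not depend on how reads common to the 2 genes were divided between them, so the high value of MI4KO mouse 3 was also present without that division. Fitted as a single gene, the pair had a log2 difference of 0.45 (standard error 0.30), and the MI4KO mean was 1.57 times the flox mean with MI4KO mouse 3 and 1.02 times without it.

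**Figure D3:**
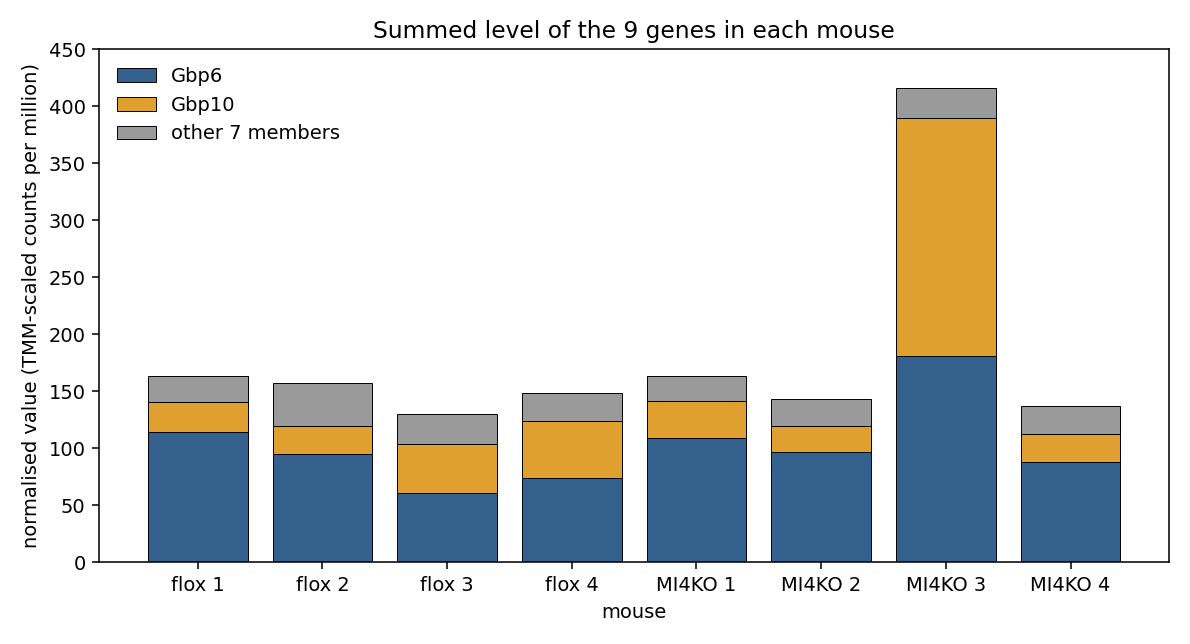
Summed normalised value of the 9 members in each mouse, stacked as Gbp6, Gbp10 and the other 7 members. The sum is 416.2 in MI4KO mouse 3 and at most 163.6 in the other mice, and Gbp6 and Gbp10 together make up between 75.8% and 93.8% of it.

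The summed value of all 9 members followed that of the pair. No flox mouse exceeded 163.6 and MI4KO mice 1, 2 and 4 ranged from 137.3 to 163.1, against 416.2 in MI4KO mouse 3. The ratio of the group means was 1.43 with all mice and 0.99 without MI4KO mouse 3. The other 7 members together, Gbp6 and Gbp10 left out, summed to 26.0 in MI4KO mouse 3, inside the range of 21.9 to 38.1 in the other mice. The high sum of that mouse thus lay in the near-identical pair.

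Gbp9 and Gbp4 are the remaining members of chromosome 5 that were clearly detected. Gbp9 was at 3.74, 6.24, 5.93 and 5.76 in flox mice 1 to 4 and at 4.64, 3.23, 6.58 and 4.29 in MI4KO mice 1 to 4. MI4KO mouse 3 was the highest for Gbp9 too, but by 1.05 times only, and flox mouse 1 stood well below the other flox mice. The log2 difference of Gbp9 was -0.19 (standard error 0.18), and -0.34 (standard error 0.16) without MI4KO mouse 3. Gbp4 was at 3.49, 6.80, 3.23 and 3.35 in flox mice 1 to 4 and at 4.42, 4.14, 2.99 and 3.38 in MI4KO mice 1 to 4. Here MI4KO mouse 3 was the lowest of all mice and flox mouse 2 the highest, and the log2 difference was -0.10 (standard error 0.19), turning to 0.11 (standard error 0.14) without flox mouse 2.

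The 3 members of chromosome 3 varied alike across the mice and unlike Gbp10. This was not particular to their cluster, since Gbp4 of chromosome 5 lay little farther from them and was also highest in flox mouse 2. Gbp2, a much-studied member in the mouse that coats bacterial and parasite vacuoles, was at 6.48, 10.4, 6.90 and 6.41 in flox mice 1 to 4 and at 4.93, 7.24, 6.38 and 6.71 in MI4KO mice 1 to 4. Gbp3 was at 4.24, 7.56, 4.65 and 3.93 in the flox mice and at 3.12, 3.23, 4.06 and 4.11 in the MI4KO mice. Gbp7, another GTPase of this cluster, was at 5.24, 7.08, 5.40 and 4.74 in the flox mice and at 4.57, 5.30, 5.65 and 6.10 in the MI4KO mice. Flox mouse 2 was the highest of all 8 mice for each of the 3 genes, the groups overlapped for each, and MI4KO mouse 3 lay within the range of the others.

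The log2 differences of the chromosome 3 members were negative or near 0. That of Gbp3 was -0.37 (standard error 0.17), the lowest of the family, and its ratio of group means was 0.71, or 0.68 without MI4KO mouse 3. Gbp2 differed by -0.21 (standard error 0.15) and Gbp7 by -0.04 (standard error 0.13). Without flox mouse 2 these became -0.19 for Gbp3, -0.07 for Gbp2 and 0.06 for Gbp7. Between 43 and 150 reads per mouse stood behind each of the 3 genes. The pattern of Gbp2 over the 8 mice lay nearest to that of Gbp7 (root mean square difference of centred log2 values 0.14) and of Gbp3 (0.15). Gbp4 (0.235) and Gbp9 (0.33) of chromosome 5 followed, then Gbp6 (0.53) and Gbp10 (1.06). Gbp3 and Gbp7 were 0.195 apart, and Gbp4 was 0.27 from Gbp3 and 0.25 from Gbp7. Gbp10 lay far from every member, at 0.82 from Gbp6 and Gbp9 and farther from the rest. Without MI4KO mouse 3 the distance of Gbp2 from Gbp10 was 0.53, against 0.14 from Gbp7, 0.165 from Gbp3 and 0.24 from Gbp4.

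**Figure D4:**
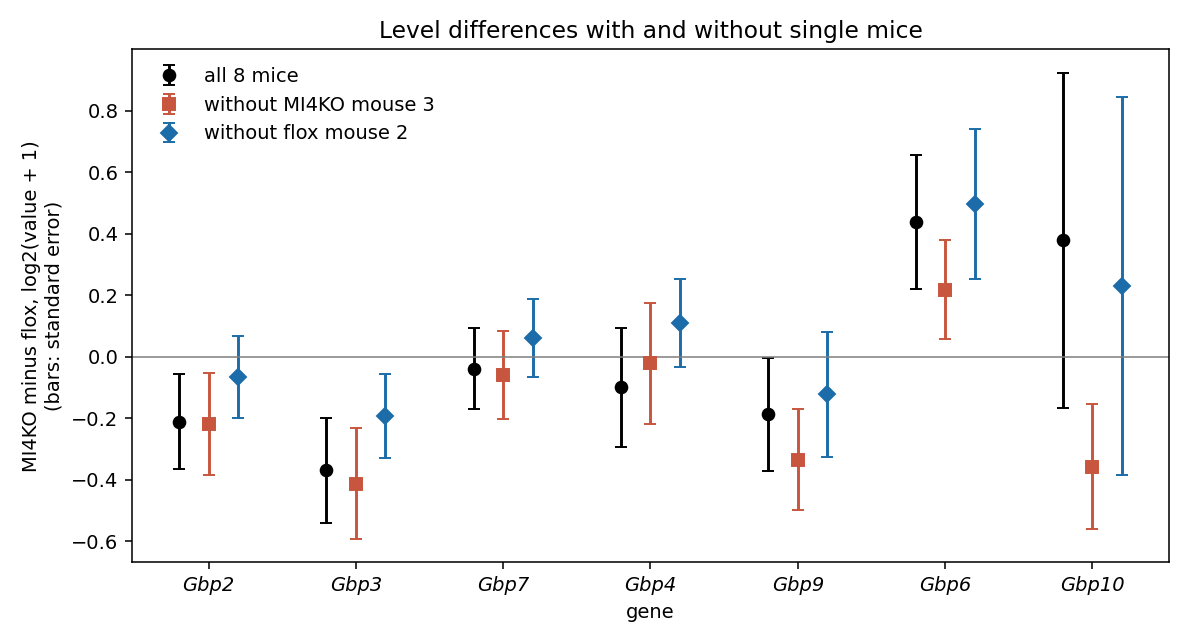
Difference between MI4KO and flox mice on the log2(value + 1) scale for the 7 members abundant enough for the fit, with all mice (black), without MI4KO mouse 3 (red) and without flox mouse 2 (blue), and the standard error of the fit across all genes as bars. Gbp10 goes from 0.38 to -0.36 without MI4KO mouse 3, and Gbp4 and Gbp7 change sign without flox mouse 2.

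The fit across all genes took genes that reached a value of 1 in 4 mice or more, which 7 of the 9 members did and Gbp8 and Gbp11 did not. Their log2 differences had a median of -0.10, with 5 below 0 and 2 above, against a median of -0.02 over all genes tested. With limma, the limits of the study, a fold of at least 1.5 with an unadjusted p under 0.05, took in 0.219% of all genes (26 of 11865) and none of the 7 members, a count from which nothing is read because the members were chosen on this contrast. The paper applied these limits with edgeR and counted more genes in SOL. It lists Gbp10 among the genes changed in both SOL and gastrocnemius muscle. Its comparison was not used here. None of the 7 members had groups that did not overlap, where 0.371% of all genes lay wholly higher and 1.70% wholly lower in MI4KO mice. At a Benjamini-Hochberg adjusted p under 0.05 limma called 0% of all genes, as did edgeR's quasi-likelihood test and DESeq2 on the recovered reads. By limma 399 genes had an unadjusted p under 0.05, of which 350 were lower and 49 higher in MI4KO mice. In MI4KO mouse 3, 1 of the 7 members, Gbp10, lay over 1 log2 unit above every other mouse, as did 0.447% of all genes. The highest value was in MI4KO mouse 3 for 3 of the 7 members and 30.9% of all genes, and in flox mouse 2 for 4 of the 7 and 7.70% of all genes.

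The signals that induce GBPs showed no change between the groups that passed a limit. Ifng and Ifnb1, the genes of interferon gamma and interferon beta, had no read in any mouse. Of the interferon gamma pathway, 10 of 12 genes were tested and none passed the limits or had groups that did not overlap, with a median log2 difference of -0.01. Irf1, which encodes the ISRE-binding factor named above, ranged from 7.95 to 10.4 in flox mice and from 8.15 to 8.44 in MI4KO mice. In MI4KO mouse 3, the mouse with the highest Gbp10, it was at 8.44, within the flox range. Others of the pathway were highest in that mouse, namely 5 of the 10 tested (Ifngr1, Ifngr2, Jak1, Jak2 and Irf2) beside 30.9% of all genes. Jak2 was at 39.95 there against at most 33.6 elsewhere and Irf2 at 21.6 against at most 17.6, and the whole list summed to 316.2 against 255.1 to 284.2. Of the type I interferon pathway 6 of 7 genes were tested, and none passed. Irf7, which amplifies type I interferon, was highest in flox mouse 2, at 6.80, against 2.42 to 4.68 in the other mice.

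The other large GTPases of the interferon response were set beside the members. Of 19 genes listed, 13 were tested, 0 passed the limits and the median log2 difference was -0.06. Gbp5, a relative known for its part in inflammasome assembly, ranged from 2.70 to 3.95 in flox mice and from 3.57 to 4.27 in MI4KO mice 1, 2 and 4, and its lowest value, 2.26, was that of MI4KO mouse 3. MI4KO mouse 3 held the highest value for 5 of the 13 (Irgm1, Ifi47, Tgtp1, Gvin1 and Atl2) and flox mouse 2 for 3 of the 13 (Igtp, Iigp1 and Tgtp2), beside 30.9% and 7.70% of all genes. Igtp and Iigp1, immunity-related GTPases that act on the same vacuoles as GBPs, reached 9.57 and 7.28 in flox mouse 2. Tgtp1, of the same family, was at 6.24 in flox mouse 2 and at 7.18 in MI4KO mouse 3. Gvin1, a very large interferon-inducible GTPase, was at 28.8 in MI4KO mouse 3 but also at 16.9 and 14.7 in flox mice 1 and 4, and at 2.98 in flox mouse 2. Atl2, an atlastin that shapes the endoplasmic reticulum and is the most abundant gene of this list, stayed between 85.5 and 117.0.

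**Figure D5:**
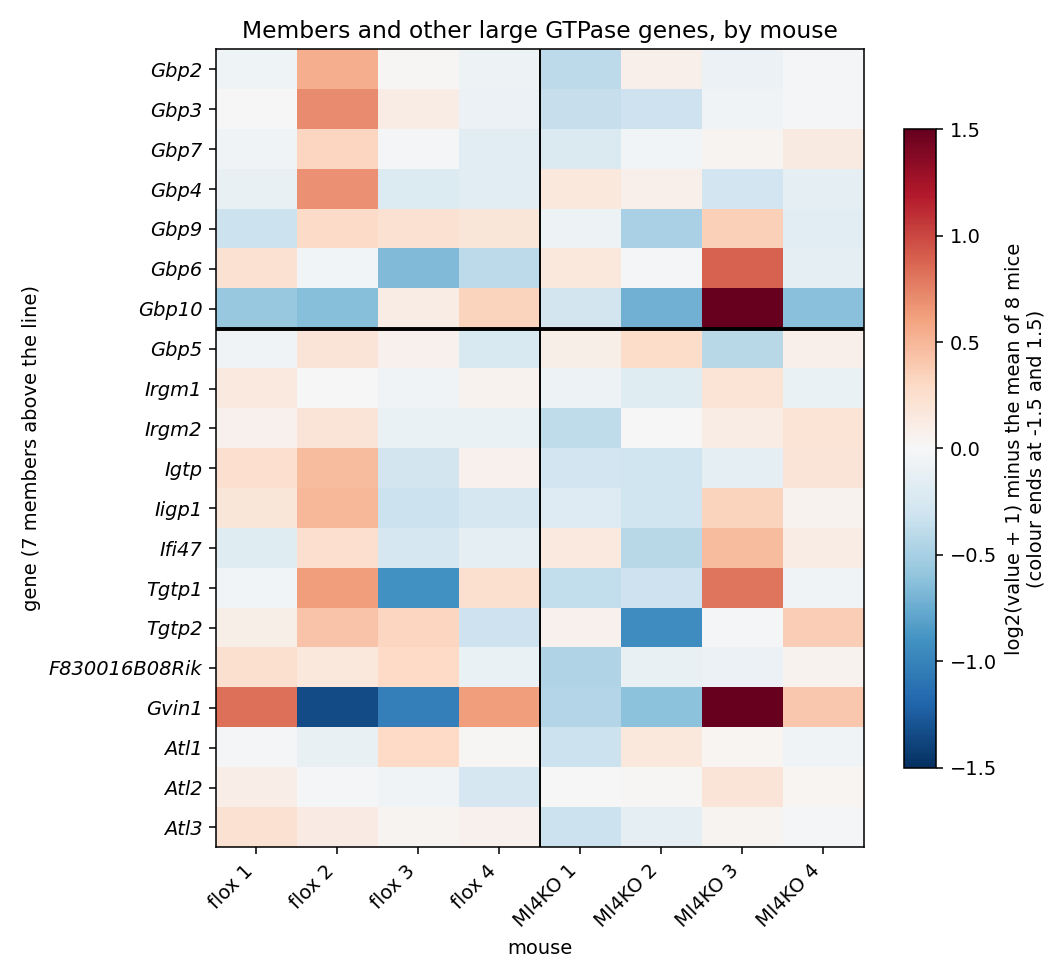
Level of the 7 members in the fit (above the line) and the 13 tested genes of other large GTPases (below it) in each mouse, as log2(value + 1) minus the gene's mean over the 8 mice, on a blue to red scale. MI4KO mouse 3 is highest for 3 of the 7 members and 5 of the 13 other genes, and flox mouse 2 for 4 of the 7 members and 3 of the 13 other genes.

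Other interferon targets lay on the low side in MI4KO mice without passing the limits. A lean to lower values was not limited to them. Of the 399 genes with an unadjusted p under 0.05 by limma, 350 were lower and 49 higher in MI4KO mice. The median log2 difference over all genes tested was -0.02. Of 20 tested interferon gamma targets outside the GTPases, none passed, 16 had a log2 difference below 0 and the median was -0.12. The groups of Psme2, a subunit of the proteasome activator, did not overlap, at 31.2 to 33.1 in flox mice and 29.2 to 31.1 in MI4KO mice. Of 17 tested type I interferon targets, none passed, 14 were below 0 and the median was -0.20. Rtp4, an interferon-induced chaperone of receptors, ranged from 3.23 to 4.37 in flox mice and from 1.81 to 2.79 in MI4KO mice (log2 difference -0.44, standard error 0.14, adjusted p = 1.0 by limma). Ifih1, which encodes the RNA sensor MDA5, ranged from 4.36 to 5.55 in flox mice and from 2.99 to 3.81 in MI4KO mice (-0.37, standard error 0.12, adjusted p = 1.0 by limma). Groups that lay wholly lower in MI4KO mice were thus found for 1 of the 20 and 2 of the 17 genes, beside 1.70% of all genes. Flox mouse 2 held the highest value for 8 of the 20 interferon gamma targets and 6 of the 17 type I targets, beside the 7.70% of all genes. General endothelial markers lay on the low side too, with 8 of 8 below 0, a median log2 difference of -0.18, none past the limits, and sums of 405.2 to 485.5 in flox mice and 317.1 to 459.6 in MI4KO mice. Of the 5 adipocyte markers 4 were below 0, with sums of 234.6 to 296.3 in flox mice and 178.4 to 262.2 in MI4KO mice. Most of each sum was Fabp4, at 211.8 to 263.1 in flox mice and 169.9 to 224.0 in MI4KO mice. Adipoq, Plin1 and Lep scattered between mice. They were highest in MI4KO mouse 4, at 9.97, 7.92 and 8.76, and at 2.18, 1.52 and 1.96 in MI4KO mouse 1. Cfd and Fabp4 were highest in flox mouse 2. The part of endothelial cells and adipocytes in the levels of interferon targets was not tested.

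Of the inflammasome genes with which GBPs act, 8 were listed and only Casp4 and Gsdmd were abundant enough to be tested. Casp4, the mouse caspase that senses lipopolysaccharide, was at 2.59 in MI4KO mouse 3 against 0.80 to 1.23 in the other mice, while Gsdmd, the pore protein cut by it, was between 1.93 and 3.15 in all. Neither passed the limits.

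Levels of other genes that moved with Gbp10 and Gbp6 in MI4KO mouse 3 were recorded beside them. All 12 glucocorticoid-responsive genes listed were highest in that mouse, beside 30.9% of all genes, and 5 of the 12 lay over 1 log2 unit above every other mouse, beside 0.447%. Among them were Fkbp5, a co-chaperone of the glucocorticoid receptor, at 158.6 against 19.4 to 31.2 in the other mice, and Mt1, a metallothionein, at 190.7 against 17.8 to 26.3. Others exceeded the other mice by little, namely Per1 (110.1 against at most 101.3), Tsc22d3 (112.0 against at most 89.6) and Klf9 (205.7 against at most 164.6). Values of the 12 genes summed to 3780 in MI4KO mouse 3 and to between 2039 and 2334 elsewhere. Most of each sum was Pdk4, at 2470 in that mouse and 1562 to 1860 in the others. The 5 markers of activated endothelium summed to 64.5 in MI4KO mouse 3 against 8.41 to 15.4 elsewhere, led by Icam1 (34.1) and Selp (15.7), and Sele was at 0.86 there and at or below 0.14 elsewhere. Neutrophil markers, none of them abundant enough for the fit, summed to 4.25 against 0.146 to 0.375. That sum came through S100a9, S100a8 and Retnlg, with 27, 24 and 13 reads in MI4KO mouse 3. The granule genes Mpo and Elane were at 0 in every mouse, and Camp and Ngp were at 0 in MI4KO mouse 3. General endothelial markers summed to 459.6, within the 317.1 to 485.5 of the other mice, macrophage markers to 66.2 against 46.2 to 61.4, and T and NK cell markers to 0.40, within 0.145 to 0.647. The part of any of these in the Gbp10 and Gbp6 values was not tested, and in whole muscle, more cells of a type and more RNA per cell cannot be told apart. Flox mouse 1, with its liver transcripts, was highest for none of the 7 members. It had the highest Gbp6 of the mice other than MI4KO mouse 3 (114.3) and the lowest Gbp9 of the flox mice (3.74). Leaving out flox mouse 1 alone moved the log2 difference of Gbp6 from 0.44 to 0.59. Leaving it out together with MI4KO mouse 3 gave log2 differences of -0.48 for Gbp10, 0.36 for Gbp6 and -0.47 for both Gbp3 and Gbp9.

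Genes outside the family with the most similar pattern were found by the root mean square difference between their centred log2 values and the mean of the 7 members. Over the 8 mice the nearest were Banp (0.06), Fgl2 (0.06), Gstp2 (0.08), Kifc2 (0.08) and Dcaf4 (0.08), each highest in MI4KO mouse 3 and next highest in flox mouse 2. Fgl2, a secreted fibrinogen-like protein with a part in immune regulation, was at 5.78 in MI4KO mouse 3, 4.79 in flox mouse 2 and 3.19 to 3.62 in the others. Over the 7 mice without MI4KO mouse 3 a different set was nearest, namely Enpp3, Rsrc1, H1fx, Zbtb33 and Pdcd4, with differences of 0.03 to 0.06 and the highest of the 7 values in flox mouse 2. The mean of the members joins the dissimilar patterns of Gbp10 and of the chromosome 3 genes, and its likeness to these genes is a description over 8 or 7 mice.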

How the data were processed

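SOL RNA of 4 MI4KO and 4 flox mice was sequenced by the authors as stranded poly(A) libraries (Kapa), 1 per mouse, with reads of 50 bases from 1 end. Per the submitters' processing notes and the methods, reads were prepared with bcl2fastq 2.17, mapped to UCSC transcripts (mm10) with Bowtie2 2.1.0, quantified with RSEM 1.2.15 and normalised by TMM. Each deposited signal value is thus a CPM value scaled by TMM. The authors' own comparison, deposited as a fold-change score with p-values and FDR from edgeR, was not used. All non-zero values came out as whole multiples of the value of 1 read (tolerance 0.01), although RSEM can give fractions, so how reads shared by paralogs were divided cannot be read from the values. Totals were 13417512 to 16384565 reads, and limits set from 3 reads cover counting error only.

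Members and gene lists were chosen with earlier results of these data known. limma 3.58.1 (R 4.3.3) with a mean-variance trend was fitted on log2(value + 1) to the 11865 genes that reached a value of 1 in 4 or more of 8 mice, after being tested on simulated data, and p-values were adjusted over all of them. Folds on this scale understate the change of low genes. Nothing in the labels says how the mice were bred into litters or handled in batches. For the members, differences, standard errors and counts against thresholds are descriptions, and no p-value is reported. Alternatives were another pseudocount (0.25), no filter, no trend, median-of-ratios scaling, equal library totals, a covariate for the 2 ranges of mouse numbers in the labels, each mouse left out, paralogs summed, and edgeR 4.0.16 (66 genes past the limits) and DESeq2 1.42.0 (51 genes) on the recovered reads. The removal of flox mouse 1 together with MI4KO mouse 3 was added after seeing the data. Named genes are the members, Irf4, genes of each list that were most abundant, past the limits, without overlap or most raised in MI4KO mouse 3, and the 5 genes nearest in pattern. Irf1, Jak2, Irf2, Irf7, Gbp5, Igtp, Iigp1, Tgtp1, Per1, Tsc22d3, Klf9, Camp, Ngp, Adipoq, Plin1 and Lep were chosen after their values were seen. Of the listed genes, Gbp1, Adgre1, Ly6g and Ighm have no row. Sequences are from GENCODE M21 and the RefSeq promoter table of GRCm38.p6.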

Additional observations from a re-analysis of the deposited data

Results flagged for a closer look

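In 24 groups of 4 mice, made up of 7 members, Gbp5, Irf4 and 3 sums in each genotype, the gap between the most extreme mouse and its nearest neighbour was compared with the range of the group on the log2 scale, and 5 groups exceeded Dixon's critical value for 4 samples. Chance alone exceeds it in about 1 in 20 groups, but the members and MI4KO mouse 3 were singled out with these values known, and the sum of all members holds the Gbp10 value, so the 5 are a description and are not read against that share. Gbp10 in MI4KO mouse 3 (209.2, gap 0.857) stood above the other MI4KO mice at 23.2 to 32.0. The sum of all members in the same mouse (416.2, gap 0.845) stood above 137.3 to 163.1. Gbp2 (10.4, gap 0.851) and Gbp4 (6.80, gap 0.901) in flox mouse 2 stood above the other flox mice, at 6.41 to 6.90 and at 3.23 to 3.49. Gbp9 in flox mouse 1 (3.74, gap 0.836) stood below the other flox mice at 5.76 to 6.24.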

How the results depend on the processing

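The 26 genes past the limits became 51 with DESeq2, 66 with edgeR, 60 with a pseudocount of 0.25, 41 without flox mouse 1 and MI4KO mouse 3 together, and 19 to 58 with 1 mouse left out. The 2 genes of the lists past the limits, Cfd (adipocyte) and Cyp2e1 (liver, highest in flox mouse 1), became 4 with DESeq2, edgeR or the smaller pseudocount, 1 with equal totals, no trend, median-of-ratios scaling, no filter or the mouse-number covariate, 1 to 5 with 1 mouse left out, and 0 without flox mouse 1 and MI4KO mouse 3. Irf4 stayed negative throughout, at -0.87 with DESeq2, -0.855 with edgeR, -0.75 with a pseudocount of 0.25 and between -0.60 and -0.31 with 1 mouse left out, and passed the limits with that pseudocount and without flox mouse 1.

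The median difference of the 7 members lay between -0.22 and 0.06 with 1 mouse left out, the positive value being that without flox mouse 2, and between -0.28 and -0.07 elsewhere. The ratio of summed members lay between 0.99 and 1.61 with 1 mouse left out. Gbp10 turned negative in both settings without MI4KO mouse 3 and was 1.01 with edgeR. The count of members past the limits, a description only, was 1 without flox mouse 1 (Gbp6, with a log2 difference of 0.59) and 0 in the other settings. The rescalings moved the median of all genes to 0.00 and 0.03 from -0.02. The paper describes its flox controls as littermates, but the labels do not give the litters of the sequenced mice, so no paired analysis was possible. Fewer than 3 reads on Gbp8 limit what can be said of it.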

Other observations

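Chosen after their values were seen, the genes nearest to Gbp10 alone over the 8 mice were Ddit4 (root mean square difference 0.19), Arrdc2 (0.20), Fkbp5 (0.30), Mchr1 (0.38) and Mt1 (0.42). Ddit4, a stress-induced inhibitor of mTORC1 signalling, was at 90.1 in MI4KO mouse 3, and like Gbp10 it was higher in flox mice 3 and 4 (21.4 and 24.4) than in the other 5 mice (8.81 to 15.03). Gbp6 alone had other neighbours, Acsl3 (0.16), Rab30 (0.19), Itgam (0.20), Srebf1 (0.22) and Alg11 (0.22). Acsl3, which activates long-chain fatty acids, was at 29.0 in MI4KO mouse 3, 18.3 in flox mouse 1 and 10.6 to 14.3 in the other mice. Gbp10 and Gbp6 shared none of these neighbours.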
